A study of Mus musculus with 6 samples.

Results

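The genes that mark inhibitory interneurons were examined in mouse cortex in which β-catenin had been stabilised in excitatory neurons. The tissue was primary somatosensory cortex, taken from C57BL/6 mice at 14 days of age and sequenced as bulk RNA. The 6 libraries form 2 groups of 3, cortex with β-cat lox(ex3) and Nex-Cre (Ovp) and cortex with β-cat lox(ex3) alone (Ctrl), so both groups carry the floxed exon 3 of Ctnnb1. Nex-Cre is expressed from the Neurod6 locus and recombines in forebrain excitatory neurons, so cortical interneurons are not the cells in which the allele is expected to be altered. The 10 genes chosen were Gad1, Gad2, Slc32a1, Pvalb, Sst, Vip, Npy, Cck, Lamp5 and Reln, taken by symbol from a table of 47794 genes. All 10 were found and all had group means above 100, so none was lost to a filter on low values.

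Cortical interneurons make GABA from glutamate and release it onto excitatory neurons and onto each other. They arise in the ventral forebrain, migrate into the cortex and settle into classes that are told apart by a calcium-binding protein or a neuropeptide, chiefly the Pvalb, Sst, Vip and Lamp5 classes. Parvalbumin appears late, while the cortical circuit matures after birth, which makes these genes a common readout of inhibitory maturation. In a bulk sample, fewer cells of a class and less RNA per cell cannot be told apart.

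The deposited table gives, for each gene, the mean over the 3 libraries of a group of read counts scaled for library size, with no spread between libraries. These group means, called scaled read counts here, summed to 18602579 in Ovp and 19016749 in Ctrl cortex. The authors' deposited table lists p-values for 30152 genes, of which 0 had an adjusted p under 0.05 (0%) and 161 (0.534%) were under 0.05 before adjustment. Ctnnb1 itself averaged 6391 in Ovp and 7574 in Ctrl cortex, for which the authors' deposited table lists an unadjusted p of 0.0304 and an adjusted p of 1, and a value over the whole gene does not show whether exon 3 was removed. Neurod6, whose locus carries the Cre, averaged 1199 in Ovp and 1942 in Ctrl cortex, where the authors' deposited table lists an unadjusted p of 5.04e-05 and an adjusted p of 0.76. The labels number the replicates without saying that each is a separate animal, so the p-values cover only sample-to-sample spread, part of which could be technical.

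All 10 interneuron genes had a lower mean in Ovp than in Ctrl cortex, by 1.78% for Slc32a1 to 17.0% for Lamp5, and 0 of the 10 passed the authors' test, against 0% of all genes. Before adjustment 0 of the 10 were under 0.05, and the smallest p in the authors' deposited table belonged to Lamp5 (0.157, adjusted p of 1). Of the 11645 genes whose mean reached 100, 57.8% had a lower mean in Ovp cortex. Among 4544 genes within the range of means of these 10 genes the share was 64.8%. A mean at least 10% lower in Ovp cortex was found for 6 of the 10 genes and for 6.62% of those 11645 genes. The median log2 fold change was -0.20 over the 10 genes, against -0.02 over the 11645 genes. These genes are expressed by the same few cells and are not independent of each other, so no test was made over the group. When both groups were scaled to the same total, 9 of the 10 stayed lower in Ovp cortex, and Slc32a1 moved to a log2 fold change of 0.0059.

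**Figure D1:**
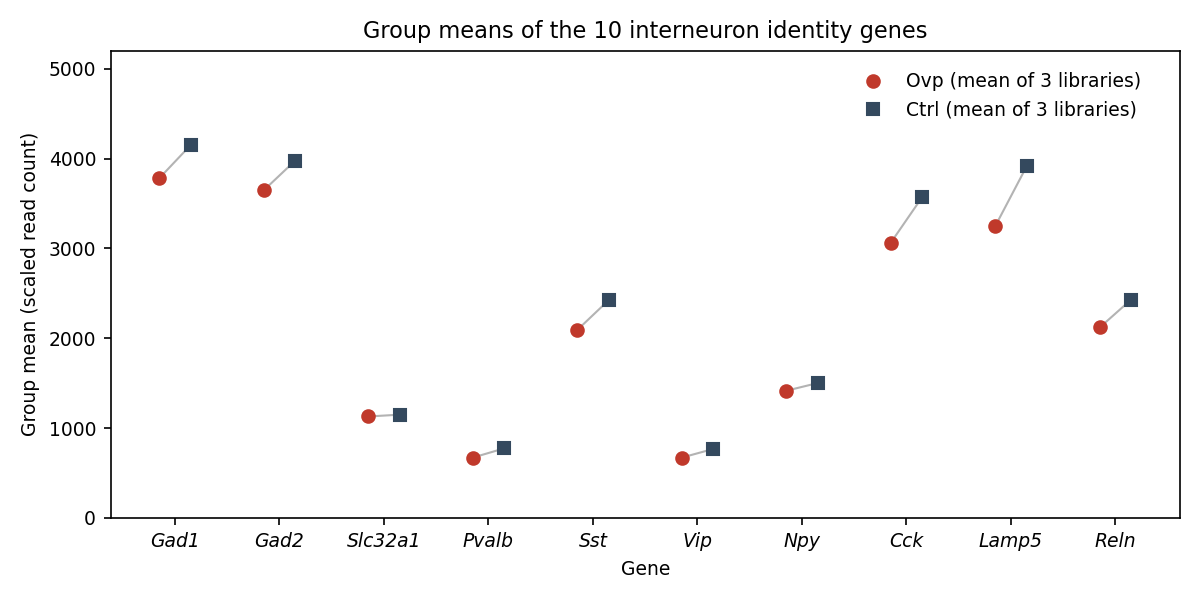
Group means (scaled read counts, vertical axis from 0) of the 10 interneuron identity genes, with Ovp (circle, left) and Ctrl (square, right) joined for each gene. Each symbol is the authors' mean of 3 libraries, with no spread. All 10 circles lie below their squares, by 1.78% for Slc32a1 and 17.0% for Lamp5.

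The genes of GABA synthesis and vesicle loading, which every interneuron class uses, had log2 fold changes of -0.13 to -0.03. Gad1 encodes the glutamate decarboxylase that makes most cortical GABA, and it averaged 3780.4 scaled read counts in Ovp and 4149 in Ctrl cortex, a log2 fold change of -0.13 (listed with a p of 0.279 and an adjusted p of 1 by the authors' deposited table). Gad2 encodes the second glutamate decarboxylase, which is concentrated at nerve terminals. It averaged 3646 in Ovp and 3976 in Ctrl cortex, also a log2 fold change of -0.13 (listed with a p of 0.281 and an adjusted p of 1 by the authors' deposited table). Slc32a1 encodes the transporter that loads GABA into synaptic vesicles and averaged 1128 in Ovp and 1149 in Ctrl cortex, a log2 fold change of -0.03 (listed with a p of 0.81 and an adjusted p of 1 by the authors' deposited table). Antisense RNA genes overlap Gad1 and Slc32a1, and the sources used here do not state whether reads were counted by strand. Their means were low beside those of the coding genes, at 3.43 in Ovp and 1.39 in Ctrl cortex for Gad1os and 0.314 in Ovp and 0.339 in Ctrl cortex for Gm14205 at Slc32a1.

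For the class markers Sst, Pvalb and Vip the log2 fold changes were -0.21 to -0.19, and 0 of these 3 genes passed the test. Sst encodes somatostatin, the peptide of a class that targets dendrites, and averaged 2091 scaled read counts in Ovp and 2423 in Ctrl cortex (log2 fold change -0.21, with a p of 0.396 from the authors' deposited table). Pvalb encodes parvalbumin, the calcium-binding protein of fast-spiking cells, and averaged 670.4 in Ovp and 773 in Ctrl cortex (log2 fold change -0.21, with a p of 0.566 from the authors' deposited table). Vip encodes vasoactive intestinal peptide, made by cells that mainly inhibit other interneurons, and averaged 670.6 in Ovp and 766 in Ctrl cortex (log2 fold change -0.19, with a p of 0.36 from the authors' deposited table). For these 3 markers the Ovp mean was 12.5% to 13.7% below the Ctrl mean. Npy, the gene of neuropeptide Y, found in Sst cells and in neurogliaform cells, averaged 1415 in Ovp and 1500.4 in Ctrl cortex (log2 fold change -0.08, with a p of 0.591 from the authors' deposited table).

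The other 3 markers are not confined to interneurons. Cck encodes cholecystokinin, a peptide of basket cells that is also made by many cortical excitatory neurons. It averaged 3063 in Ovp and 3569.8 in Ctrl cortex (log2 fold change -0.22, with a p of 0.317 from the authors' deposited table). Lamp5 encodes a membrane protein of neurogliaform cells that upper-layer excitatory neurons also express, and it had the lowest ratio of the 10, with 3248 in Ovp and 3913 in Ctrl cortex (log2 fold change -0.27, with a p of 0.157 from the authors' deposited table). A share of 0.996% of the 11645 genes had a lower log2 fold change than Lamp5. Reln encodes reelin, a secreted protein made by Cajal-Retzius cells early on and by several interneuron classes later. It averaged 2119.6 in Ovp and 2430.1 in Ctrl cortex (log2 fold change -0.20, with a p of 0.53 from the authors' deposited table).

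**Figure D2:**
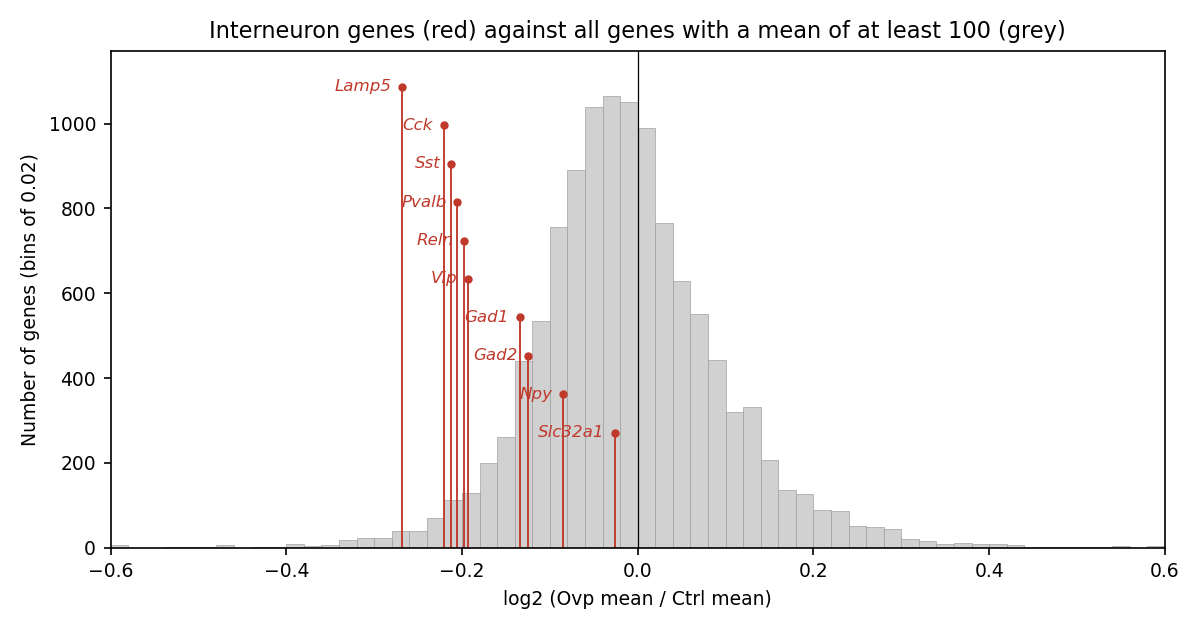
Log2 ratio of the Ovp mean to the Ctrl mean (horizontal axis) for the 11645 genes whose mean reached 100 (grey bars, number of genes in bins of 0.02, values past 0.6 placed in the end bins) and for the 10 interneuron genes (red lines, whose heights only separate the names). The red lines run from -0.27 for Lamp5 to -0.03 for Slc32a1, all on the lower side of 0.

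Markers were also set against the genes of GABA synthesis and loading. The sum of Gad1, Gad2 and Slc32a1 was 8555 in Ovp and 9274 in Ctrl cortex, a ratio of 0.922. Set against this sum, which removes the scaling between groups, Lamp5 stood at 0.38 in Ovp and 0.422 in Ctrl cortex. Sst stood at 0.244 in Ovp and 0.261 in Ctrl cortex, Pvalb at 0.0784 in Ovp and 0.0833 in Ctrl cortex, and Vip at 0.0784 in Ovp and 0.0826 in Ctrl cortex. Npy alone among the 7 other markers was higher relative to this sum, at 0.165 in Ovp and 0.162 in Ctrl cortex. No spread can be given for these ratios of group means.

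Levels were compared between genes as scaled read counts per kb of merged exons, with lengths from the GENCODE M21 annotation. The annotation behind the deposited counts is not given in the sources used here, and merged exons of all isoforms overstate the length of most transcripts. Sst had the highest level, 2901 per kb in Ovp and 3361 per kb in Ctrl cortex. Npy had 2499.98 per kb in Ovp and 2651 per kb in Ctrl cortex, and Cck 2347 per kb in Ovp and 2735 per kb in Ctrl cortex. Npy and Cck were the only pair to change places between the groups. Below them came Lamp5, at 1108 per kb in Ovp and 1334 per kb in Ctrl cortex, and Pvalb, at 644 per kb in Ovp and 743 per kb in Ctrl cortex. Gad2 was at 621 per kb in Ovp and 677 per kb in Ctrl cortex, Gad1 at 495 per kb in Ovp and 543 per kb in Ctrl cortex, and Slc32a1 at 403 per kb in Ovp and 411 per kb in Ctrl cortex. Vip followed at 197 per kb in Ovp and 225 per kb in Ctrl cortex. Reln, whose merged exons span 23.7 kb, was lowest at 89.3 per kb in Ovp and 102 per kb in Ctrl cortex. Thus the peptide genes Sst, Npy and Cck stood above both decarboxylase genes in each group. The spread between libraries is not known for most of these genes, so it cannot be said which neighbours in the order differ beyond it.

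Stabilised β-catenin acts on DNA through TCF/LEF factors, whose core motif was therefore looked for in the promoters. RefSeq windows of the GRCm38.p6 build, from 250 bases before to 50 after each start, were found for all 10 genes, 12 windows in all. The motif CTTTGA, searched on both strands, was present in 2 of the 12 windows, those of Vip and of the downstream Lamp5 start, and in 16.0% of all 32851 windows. The longer CTTTGAT was in 0 of the 12 windows and in 3.73% of all windows. The cAMP response element TGACGTCA, the site of CREB that is well known from the Sst promoter, was in the Sst window alone and in 1.79% of all windows. The start of that element, TGACG, was in the windows of Sst, Vip, Cck and Gad2 and in 20.8% of all windows, and it is contained in every TGACGTCA. The 3 windows below are shown because they hold these motifs in the genes whose values are discussed most, with matches to CTTTGA or TGACG in capitals, on either strand.
Sst, chr16:23890795-23891094, minus strand: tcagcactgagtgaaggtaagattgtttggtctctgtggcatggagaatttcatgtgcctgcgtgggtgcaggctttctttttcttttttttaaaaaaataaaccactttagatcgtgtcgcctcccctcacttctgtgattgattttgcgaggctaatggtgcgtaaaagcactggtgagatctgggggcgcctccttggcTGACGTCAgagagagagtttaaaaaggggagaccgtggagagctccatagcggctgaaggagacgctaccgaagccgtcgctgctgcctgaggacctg
Vip, chr10:5638968-5639267, plus strand: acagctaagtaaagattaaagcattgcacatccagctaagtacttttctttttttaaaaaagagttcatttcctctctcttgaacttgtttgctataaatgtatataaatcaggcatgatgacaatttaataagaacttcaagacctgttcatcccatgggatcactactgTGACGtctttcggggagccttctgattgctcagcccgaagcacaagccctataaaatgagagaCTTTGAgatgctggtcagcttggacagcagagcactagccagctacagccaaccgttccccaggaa
Lamp5, chr2:136057498-136057797, plus strand: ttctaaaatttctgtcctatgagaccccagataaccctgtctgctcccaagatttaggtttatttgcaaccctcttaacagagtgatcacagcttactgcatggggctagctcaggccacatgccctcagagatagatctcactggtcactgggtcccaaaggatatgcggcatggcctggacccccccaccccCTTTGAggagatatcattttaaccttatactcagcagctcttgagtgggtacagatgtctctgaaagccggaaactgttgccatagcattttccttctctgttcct
These matches describe letters only, and cortical interneurons are not the cells in which the allele is expected to be altered. The log2 fold changes of the genes with CTTTGA were -0.27 for Lamp5 and -0.19 for Vip, and those of the 8 genes without it ran from -0.22 for Cck to -0.03 for Slc32a1.

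Values for single libraries were recovered for 2 of the 10 genes. A group mean is the mean of 3 whole read counts, each divided by its library's scaling factor, and for low enough means only a single combination of whole reads gives the deposited digits. Within a group, library A has the highest scaling factor and C the lowest, and none can be matched to a replicate number. Vip had 1 combination within 2-fold of the mean in both groups. Pvalb had 1 in Ctrl cortex, and in Ovp cortex 2 within 2-fold of the mean, of which 1 lay within 1.5-fold. The means of the other 8 genes matched 3 or more combinations in each group, and no library values are given for them.

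For Vip the recovered scaled read counts were 678, 769.8 and 564 in Ovp A, B and C, against 937, 701 and 662 in Ctrl A, B and C. The Ctrl values were highest in library A, and the other 2 Ctrl libraries lay inside the Ovp range, so the groups overlapped. The means were 670.6 ± 103 in Ovp and 766 ± 149 in Ctrl cortex (SD, n = 3 each). With limma fitted to 10154 genes with recovered libraries, on log2(value + 1), Vip had a log2 fold change of -0.19 ± 0.14 (SE) and an adjusted p of 0.999. As a fold this was 0.878, with a 95% interval of 0.715 to 1.08. An exact two-sided permutation test of the 3 against 3 libraries gave p = 0.5, where the smallest p the design allows is 0.1.

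For Pvalb the Ovp mean allowed 522, 811 and 678 in Ovp A, B and C (first combination) or 771, 803 and 438 (second combination). The Ctrl values were 999.8, 613 and 706 in Ctrl A, B and C. Under either combination the groups overlapped, and Ctrl A again held the highest value. The means were 670.4 ± 145 in Ovp cortex with the first combination, or 670.4 ± 202 with the second, and 773 ± 202 in Ctrl cortex (SD, n = 3 each). The limma log2 fold change was -0.20 ± 0.17 (SE) with the first combination, with an adjusted p of 0.999, and -0.23 with the second. The fold of 0.872 had a 95% interval of 0.67 to 1.13. An exact two-sided permutation test gave p = 0.5 with the first combination and p = 0.7 with the second. By limma 0 of the 10154 genes (0%) had an adjusted p under 0.05, and 217 (2.14%) were under 0.05 before adjustment, neither Vip nor Pvalb among them.

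Both values depended on Ctrl A. Without it the log2 fold change was -0.034 for Vip and 0.0039 for Pvalb (first Ovp combination, as for all Pvalb values in this paragraph). They also moved with single Ovp libraries, since without Ovp C the value for Vip was -0.068, and without Ovp A the value for Pvalb was -0.029. Without Ovp B the values were further from 0, at -0.29 for Vip and -0.35 for Pvalb, and they were similar without Ctrl C for Vip (-0.28) and without Ctrl B for Pvalb (-0.35). In the second combination the lowest Ovp library for Pvalb was C, at 438, in place of A. Libraries were not left out with that combination, so it is not settled on which libraries the Pvalb value rests. For Vip the coefficient of variation was 15.4% in Ovp and 19.4% in Ctrl libraries, where counting alone would give 3.75% in Ovp and 3.77% in Ctrl cortex. For Pvalb it was 21.6% in Ovp and 26.1% in Ctrl cortex, where counting alone would give 3.75% in Ovp and 3.78% in Ctrl cortex. Over all recovered genes whose mean reached 100 the median SD between libraries was 0.15 on the log2 scale. That SD is for single libraries, not for a difference between group means. It also rests on means up to 1200, the highest that were searched.

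**Figure D3:**
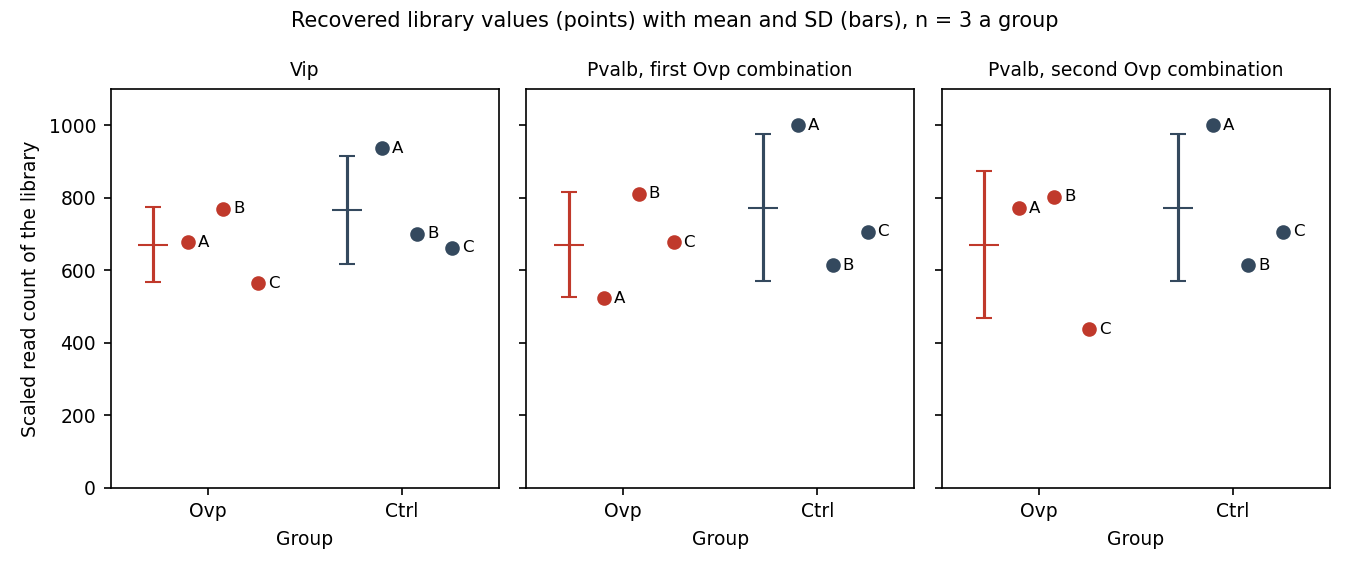
Recovered scaled read counts (vertical axis from 0) of Vip and Pvalb in Ovp (left, red) and Ctrl (right, dark) libraries A, B and C, with the mean and SD of 3 libraries as bars. The 2 Pvalb panels differ only in the combination of reads matched to the Ovp mean. Ctrl A is the highest library in all 3 panels, at 937 for Vip and 999.8 for Pvalb, and the other Ctrl libraries fall among the Ovp libraries.

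Other interneuron genes were followed in 5 lists, which together held 62 tested genes beside the 10. Of these 62, 0 passed the authors' test, against 0% of all genes, and 0 were under 0.05 before adjustment, against 0.534%, while 43 had a lower and 19 a higher mean in Ovp cortex. Their median log2 fold change was -0.07. With both groups scaled to equal totals, which shifts every gene by 0.032 on the log2 scale, 36 were lower and 26 higher, so part of the split in these lists depends on the scaling. On the deposited scale, 57.8% of genes whose mean reached 100, as not all of the 62 do, were lower in Ovp cortex. Within the range of means of the 10 genes it was 64.8%. The counts of lower means in each list below are to be read beside these shares.

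Among 18 transcription factors of interneuron lineages, 12 had a lower and 6 a higher mean in Ovp cortex, against 9 lower and 9 higher at equal totals, and the median log2 fold change was -0.05. The most abundant were Nfix, at 7529 in Ovp and 8333 in Ctrl cortex, Satb1, needed for the maturation of Sst cells, at 3289 in Ovp and 3631 in Ctrl cortex, and Prox1, a factor of caudally derived classes, at 961 in Ovp and 834 in Ctrl cortex. Among those whose mean reached 100 the log2 fold change was largest for Dlx6, a homeobox gene of ventral progenitors and their interneurons, at 115 in Ovp and 92.2 in Ctrl cortex (log2 fold change 0.32, with a p of 0.293 from the authors' deposited table). The recovered Dlx6 values were 92.1, 126 and 127 in Ovp A, B and C, against 76.4, 73.4 and 127 in Ctrl A, B and C, so the groups overlapped. Its neighbour Dlx5, named after its values were seen, had 78.2, 87.5 and 85.9 in Ovp A, B and C, against 68.2, 72.4 and 51.8 in Ctrl A, B and C. These Dlx5 values did not overlap, with a limma log2 fold change of 0.39 ± 0.19 (SE), an unadjusted p of 0.0558 and an adjusted p of 0.999. Dlx6os1, an RNA gene on the opposite strand of the same locus, pointed the other way, at 248 in Ovp and 297 in Ctrl cortex, and if reads were not counted by strand, which the sources used here do not state, its reads cannot be told from those of its partners. Lhx6, which directs the Pvalb and Sst lineages, averaged 495 ± 31.3 in Ovp and 479.5 ± 59.3 in Ctrl cortex (SD, n = 3 each).

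Of 10 further genes of Pvalb cells, 8 had a lower and 2 a higher mean in Ovp cortex, with a median log2 fold change of -0.10. Kcnc1, a potassium channel gene of fast-spiking cells, averaged 3085 in Ovp and 3452 in Ctrl cortex (log2 fold change -0.16). Syt2, a calcium sensor of their terminals, averaged 803 in Ovp and 912 in Ctrl cortex (log2 fold change -0.18, with a p of 0.155 from the authors' deposited table). Cplx1 and Lynx1, which many neurons express, were at 10333 and 10274 in Ovp cortex, against 11084 and 10672 in Ctrl cortex.

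Of 10 further genes of Sst cells, 7 had a lower and 3 a higher mean in Ovp cortex, against 5 lower and 5 higher at equal totals, and the median log2 fold change was -0.07. Among those whose mean reached 100 the log2 fold change was furthest from 0 for Cort, which encodes cortistatin, a peptide related to somatostatin, at 119 in Ovp and 166 in Ctrl cortex (log2 fold change -0.48, with a p of 0.19 from the authors' deposited table). Its recovered values were 107, 183 and 68.3 in Ovp A, B and C, against 178, 172 and 148 in Ctrl A, B and C. Ovp B was the highest of all 6 libraries, and Ovp C the lowest, so the groups overlapped. Calb1, which encodes calbindin and is shared with upper-layer excitatory neurons, averaged 2367 in Ovp and 2718 in Ctrl cortex, while Nos1, of long-range Sst cells, averaged 823 in Ovp and 828 in Ctrl cortex. Grin3a, which encodes a glutamate receptor subunit, averaged 1374 in Ovp and 1397 in Ctrl cortex.

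In the 14 genes of Vip, Cck and Lamp5 cells, 10 had a lower and 4 a higher mean in Ovp cortex, with a median log2 fold change of -0.08. Cnr1, the cannabinoid receptor gene of Cck basket cells, averaged 3319 in Ovp and 3564 in Ctrl cortex, and Id2, frequent in Lamp5 cells, 1753 in Ovp and 1889 in Ctrl cortex. Penk, which encodes an opioid peptide precursor and is also a striatal marker, averaged 566 in Ovp and 477 in Ctrl cortex (log2 fold change 0.25). Calb2, which encodes calretinin, found in many Vip cells, had recovered values of 304, 284 and 300.1 in Ovp A, B and C, against 266, 269 and 297 in Ctrl A, B and C, which overlapped. Among 10 genes of interneurons in general, 6 had a lower and 4 a higher mean. Erbb4, the neuregulin receptor gene, averaged 1534 in Ovp and 1663 in Ctrl cortex, and Gria4, an AMPA receptor subunit gene, 2060.2 in Ovp and 2167 in Ctrl cortex. Robo1, an axon guidance receptor gene, averaged 1259 in Ovp and 1129.6 in Ctrl cortex.

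Library values were recovered for 34 genes of these 5 lists and the 10 identity genes together. Of the 34, 22 had a limma log2 fold change below 0 and 12 above it, and 0 were under 0.05 before adjustment, against 2.14% of all recovered genes. The groups did not overlap for 2 of the 34, Dlx5 and the chemokine receptor gene Cxcr4, both higher in Ovp cortex, and for 7.04% of all recovered genes. Ctrl A, which was highest for Vip and Pvalb, was the highest library for 6 of the 34 genes (17.6%) and for 13.1% of all recovered genes. In median, the 34 genes deviated from their own mean by -0.12 in Ovp A, 0.098 in Ovp B and -0.0043 in Ovp C, against -0.03 in Ctrl A, 0.024 in Ctrl B and 0.026 in Ctrl C, on the log2 scale. Ovp A was thus the lowest and Ovp B the highest library for interneuron genes, and both belong to the same group. Over all recovered genes these medians were -0.0049 in Ovp A and 0.058 in Ovp B.

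**Figure D4:**
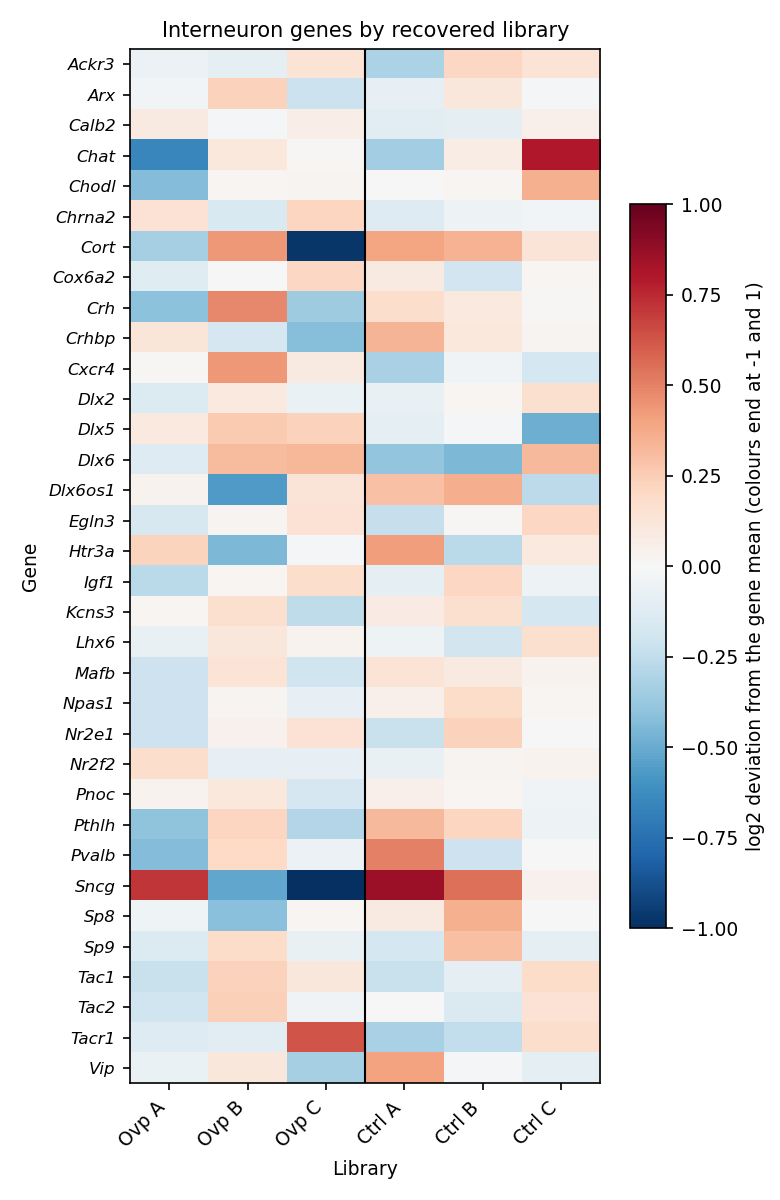
Log2 deviation of each recovered library from the gene's mean over 6 libraries (colour, ending at -1 and 1), for the 34 interneuron genes with recovered values, Ovp libraries left of the line and Ctrl libraries right of it. Pvalb uses the first Ovp combination. In the Pvalb and Vip rows Ctrl A is the reddest library, and Ovp A is below the gene's mean for 23 of the 34 genes.

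Of 9 genes that transport or break down GABA and its precursors, 5 had a lower and 4 a higher mean in Ovp cortex, and 4 a lower and 5 a higher one at equal totals, with a median log2 fold change of -0.02 and 0 past the authors' test. Glul, which makes glutamine in astrocytes, averaged 20449 in Ovp and 20799 in Ctrl cortex. Slc6a13, a GABA transporter gene of the meninges, had the largest log2 fold change of this list, -0.27, at 126 in Ovp and 152 in Ctrl cortex (with a p of 0.338 from the authors' deposited table). Its recovered values were 75.8, 125 and 177 in Ovp A, B and C, against 151, 168 and 136 in Ctrl A, B and C, so the groups overlapped.

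Receptors for the peptides and for reelin gave 11 genes with a lower and 3 with a higher mean among 14 tested (8 lower and 6 higher at equal totals), a median log2 fold change of -0.06 and 0 past the authors' test. Adcyap1r1, a receptor gene of the family that also binds vasoactive intestinal peptide, averaged 2835 in Ovp and 3214 in Ctrl cortex (log2 fold change -0.18, with a p of 0.14 from the authors' deposited table). Of the reelin receptor genes, Lrp8 was at 3142 in Ovp and 3054 in Ctrl cortex and Vldlr at 1994 in Ovp and 2140.5 in Ctrl cortex. Npy2r, a neuropeptide Y receptor gene, averaged 201 in Ovp and 154 in Ctrl cortex, a log2 fold change of 0.39 (with a p of 0.604 from the authors' deposited table). Cckar, a cholecystokinin receptor gene, was listed at 0 in both groups.

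Other cells that make some of the 10 genes' products were checked by their markers. Striatal projection neurons are GABAergic and also contain Gad1 and Gad2. Of 12 striatal markers 9 had a higher and 3 a lower mean in Ovp cortex, with a median log2 fold change of 0.21, and 0 passed the authors' test. Summed over the 12, their level was 12434 in Ovp and 11717 in Ctrl cortex. Adora2a, an adenosine receptor gene of striatal neurons, averaged 311 in Ovp and 220.5 in Ctrl cortex (with a p of 0.283 from the authors' deposited table). The 5 striatal markers with recovered libraries summed to between 1020.2 and 1162 in Ovp and between 978 and 1216 in Ctrl libraries. Pdyn, the most abundant of the 5, had a lower mean in Ovp (540) than in Ctrl cortex (598). As medians over the 5, the log2 deviation was lowest in Ctrl A (-0.46) and highest in Ovp C (0.38). By their sum the highest library was Ctrl C (1216). Vip was highest in Ctrl A and lowest in Ovp C. Pvalb was also highest in Ctrl A, and lowest in Ovp A with the first Ovp combination or in Ovp C with the second. Whether these 2 genes follow the striatal markers over the libraries was not tested. The part of striatal tissue in the values of the 10 genes was not tested. For Reln, the Cajal-Retzius markers Lhx1 and Lhx5 were near 0, with Lhx1 at 1.5 in Ovp and 1.74 in Ctrl cortex and Lhx5 at 0.272 in Ovp and 0.728 in Ctrl cortex. Trp73 was at 24.4 in Ovp and 19.5 in Ctrl cortex, and of the 7 markers 3 had a higher and 4 a lower mean.

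Markers of excitatory neurons, the cells that recombine, had a lower mean in Ovp cortex for 10 of 10 genes, and for 8 of 10 at equal totals, with a median log2 fold change of -0.07. The authors' deposited table lists 2 of the 10 under 0.05 before adjustment, against 0.534% of all genes tested, namely Neurod6, the locus that carries the Cre, and Slc17a6, a vesicular glutamate transporter gene, at 448 in Ovp and 584 in Ctrl cortex. Only Ovp cortex carries the Cre, so the Neurod6 locus itself differs between the groups by design. The Cre allele and stabilised β-catenin cannot be told apart here. Slc17a7, the main transporter gene of that family in cortex, averaged 30449 in Ovp and 31689 in Ctrl cortex. Since Cck and Lamp5 are also expressed by excitatory neurons, their means cannot be assigned to interneurons. Of 7 oligodendrocyte lineage markers 6 had a higher mean in Ovp cortex (median 0.10), with Mbp at 57327 in Ovp and 52980 in Ctrl cortex. For 7 astrocyte markers the median was -0.05, for 6 microglia markers 0.02 and for 8 vessel and meninges markers -0.01, and 0 members of these lists passed the test. The part of cell mixture in the values of the 10 genes was not tested.

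**Figure D5:**
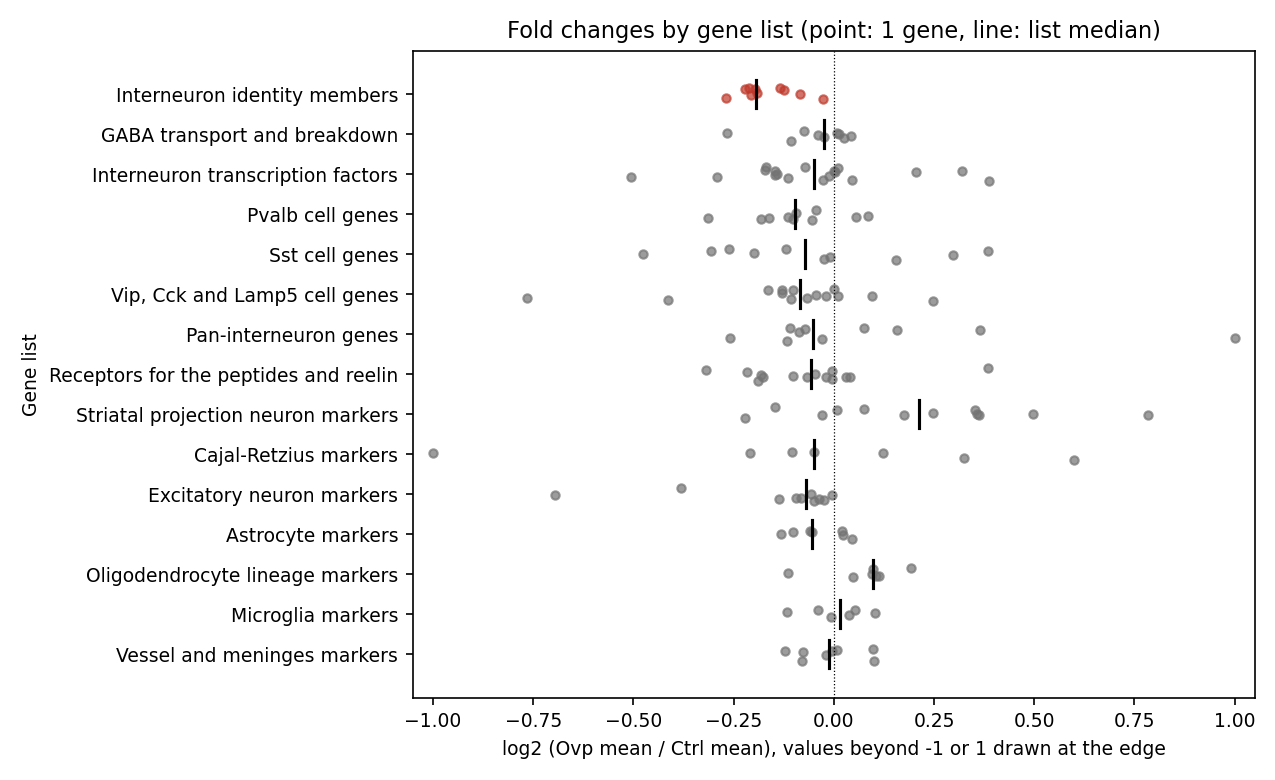
Log2 ratio of the Ovp mean to the Ctrl mean (horizontal axis, values beyond -1 or 1 drawn at the edge) for every gene of each list with both means above 0 (points), with list medians as black lines. The 10 interneuron identity genes (red, top) lie between -0.27 and -0.03 with a median of -0.20, and the striatal markers have the highest median, 0.21. Neurod6 is the excitatory marker furthest left, at -0.70.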

How the data were processed

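Total RNA from Trizol extraction (3 µg per library) was made into Illumina TruSeq libraries, per the labels' protocols. The submitters' processing notes list Bowtie2 2.0.6 with TopHat2 2.0.9. The sources used here do not state the build, annotation, read counter, strand setting or test. The authors deposited 1 signal value per gene and group, a mean of read counts scaled per library, as read from the values. Raw and adjusted p-values per gene were also deposited, per the file headers. Depth per library is known only through the scaling factors, 1.23, 1.06 and 0.966 in Ovp and 0.982, 0.926 and 0.907 in Ctrl libraries.

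Symbols were matched by Ensembl ID for 46488 genes (98.8% of 47069). Log2 fold changes are log2 of the Ovp mean over the Ctrl mean, with no pseudocount. A call was an authors' adjusted p under 0.05. Library values were recovered by matching each mean, to 10 significant digits, with whole reads of 3 libraries. All combinations were searched up to a mean of 100, and above it those within 2-fold of the mean. Above 100, genes with a wider spread are therefore missed, or given wrong library values where a single other combination lies within 2-fold. This limit holds for Vip and Pvalb. Exactly 1 combination was found for 89.1% of 24203 Ovp means and 99.3% of 23575 Ctrl means up to 1000. The combination used for Pvalb in Ovp cortex was the one within 1.5-fold of the mean. The limma package (3.58.1, R 4.3.3), with trend, was applied to log2(value + 1) of the 10154 genes recovered in both groups with a mean of at least 10 (59.4% of such genes), with Benjamini-Hochberg adjustment. Fold changes of low genes are understated on that scale. Recovery and fit were tested on simulated data with the same preset spread between libraries for all genes, so that test does not cover genes with a wider spread.

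The 10 genes and the 14 other lists (140 genes) were chosen with earlier results of these data known. The genes named were the 10, and in each other list the 3 with the highest mean, the largest log2 fold change among means of at least 100 and any gene with an authors' p under 0.05. Some of these are not reported here. Further genes (Dlx5, Cxcr4, Lhx6, Calb2, Lhx1, Lhx5, Ebf3 and Cckar) were named after their values were seen. Promoter sequences are RefSeq's, build GRCm38.p6. Alternatives were other scalings, filters, pseudocounts, no trend and leaving out each library.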

Additional observations from a re-analysis of the deposited data

How the results depend on the processing

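The count of 10 lower means was 9 after scaling both groups to the same total, where Slc32a1 took a log2 fold change of 0.0059, and 10 after scaling by the median ratio of genes whose mean reached 100. The median over the 10 genes was -0.16 and -0.18 under these scalings. Adjustment over the 17095 genes with a mean of at least 10 called 0 of the 10 genes as well. On recovered libraries, leaving out 1 library at a time gave log2 fold changes of -0.29 to -0.034 for Vip and of -0.35 to 0.0039 for Pvalb, whose sign turned without Ctrl A, and 0 to 0 genes called, against 0 with all 6 libraries. These Pvalb values hold for the first Ovp combination only. The number of genes with an unadjusted p under 0.05 ranged from 149 to 386, with 338 without Ovp B, 330 without Ovp C and 386 without Ctrl C. With no minimum on the mean, limma called 1 gene in place of 0, and 725 had an unadjusted p under 0.05. That number was 341 with no trend and 115 with a mean of at least 50. The median of the 34 recovered interneuron genes was -0.036 with all 6 libraries, -0.098 without Ovp B, -0.078 without Ctrl A, -0.06 without Ovp C and between -0.044 and -0.025 without each of the others, which was chosen after seeing the data. The causes of these shifts were not tested. No paired analysis was possible because the columns carry no replicate numbers. The Cajal-Retzius median was 0.12 with a mean of at least 10, against -0.05 without a minimum. The alternatives for the unadjusted count, which was 217 as reported, and the second Pvalb combination were also added after seeing the data. Only 2 of 10 genes were resolved to libraries. The fold interval reached from 0.715 to 1.08 for Vip and, with the first Ovp combination, from 0.67 to 1.13 for Pvalb. For these 2 genes the differences seen in the group means could not be told from 0. No such interval can be given for the other 8 genes, whose spread between libraries is not known.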
